A study of Homo sapiens with 22 samples.

Results

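BCR and ABL1 are the genes whose exchange between chromosomes 22 and 9 gives the BCR-ABL1 fusion of K562, an erythroleukemia line from chronic myeloid leukemia. The regions described here were chosen by position alone. They are all regions of 4 deposited count tables that overlapped the span of either gene in GRCh38, extended by 200 kb on both sides. They came to 414 of 409446 regions, with 205 around BCR and 209 around ABL1. By antibody, 86 of 95436 regions were from H3K27ac, 141 of 138731 from Jun, 76 of 66168 from CTCF and 111 of 109111 from Rad21.

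K562 cells labelled wild type were profiled by CUT&RUN, in which a nuclease tethered to an antibody releases the bound DNA for sequencing. All groups came from cells given 25 nM PMA, a phorbol ester that activates protein kinase C and drives K562 cells towards megakaryocyte-like cells, for 0, 6 or 72 h. The cells were fixed in 1% formaldehyde for 10 min and processed in aliquots of 500000 cells, and 22 libraries made up 11 groups of 2. Rad21 was profiled at 0 and 72 h only among the samples used here, and no library of an unspecific antibody was used. The labels do not say that the replicates came from separate cultures, so a p-value here measures the spread between these samples, which may be technical.

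BCR encodes a multidomain protein with a coiled-coil region and kinase and GTPase-regulating domains, and ABL1 encodes a tyrosine kinase. In the fusion, the 5′ part of BCR is joined to the 3′ part of ABL1, so the BCR promoter drives a constitutively active kinase that signals through RAS, PI3K and STAT5. K562 is known to carry extra copies of the fused segments. H3K27ac marks active promoters and enhancers, and Jun is a subunit of AP-1, a transcription factor that phorbol esters activate. CTCF and Rad21, a cohesin subunit, meet at the anchors of chromatin loops. A count over a region cannot tell more copies of the DNA from more signal per copy, nor a change in every cell from a change in some of them.

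The RefSeq promoter windows of both genes (GRCh38.p14, plus strand, 250 bases before to 50 after the annotated start) are shown because the BCR window lies under measured regions and drives the fusion. The BCR window is chr22:23180259-23180558, and 1 H3K27ac, 1 Jun and 1 Rad21 region overlapped it, while the nearest CTCF region lay 0.58 kb away. The ABL1 window of the RefSeq table, chr9:130835004-130835303, lies 122.0 kb inside the gene span. No region overlapped it, and the nearest H3K27ac and Jun regions lay 2.12 kb away. Capitals mark matches on either strand to a CTCF core (AGGNGGC) and to a GC box (GGGCGG), none of which overlapped another.
BCR: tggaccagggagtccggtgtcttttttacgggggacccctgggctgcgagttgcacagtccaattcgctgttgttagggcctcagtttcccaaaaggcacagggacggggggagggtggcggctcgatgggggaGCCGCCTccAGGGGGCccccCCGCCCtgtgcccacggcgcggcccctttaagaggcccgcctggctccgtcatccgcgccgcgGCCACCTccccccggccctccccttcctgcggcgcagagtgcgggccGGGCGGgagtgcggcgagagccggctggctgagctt
ABL1: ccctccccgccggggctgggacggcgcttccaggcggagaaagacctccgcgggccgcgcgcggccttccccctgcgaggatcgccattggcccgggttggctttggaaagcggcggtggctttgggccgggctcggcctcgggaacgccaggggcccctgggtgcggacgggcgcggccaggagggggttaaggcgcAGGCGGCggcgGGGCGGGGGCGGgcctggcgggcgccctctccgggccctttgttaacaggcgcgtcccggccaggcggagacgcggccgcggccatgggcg
The BCR window held 3 matches to the CTCF core and 2 to the GC box, and the ABL1 window held 1 and 2. Of 35116 promoter windows of this length, 35.9% held the CTCF core and 45.0% the GC box. Neither window matched the AP-1 motif TGANTCA, found in 7.71% of promoters, on either strand. The same held for the GATA-factor motif AGATAA, found in 10.3%, and for the cyclic AMP response element TGACGTCA, found in 1.85%. Their GC contents were 71.7% and 78.3%, against a median of 58.7%.

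The libraries held between 2553677 counts in regions, the smallest for CTCF, and 27266241, the largest for H3K27ac, with median counts of 13 to 94 per region. H3K27ac at 0 h was high at all 7 erythroid marker genes tried (42.5 to 214.3 CPM, counts per 1000000 with TMM scaling, against a median of 2.21 over the table). Megakaryocyte markers ranged from 0.924 to 70.8 CPM, 4 lymphoid markers from 0 to 21.8 CPM, and neither of 2 hepatocyte genes had a region. The list medians were 68.8 CPM (erythroid), 4.24 (megakaryocyte) and 10.1 (lymphoid). Each gene was read at its strongest region over all times, while the table's median is over all regions. Being above that median thus does not by itself separate cell types. Replicates differed by more than counting noise in every group, at 2.15 to 6.74 for the chi-square over its degrees of freedom.

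At 0 h, Jun, CTCF and Rad21 counts around both genes were well above those of the typical region of their tables, and H3K27ac counts were not. The level used here is the count per kb of a region divided by the median count per kb of all regions of its table in the same library, so a level of 1 is the typical region and no scaling between libraries enters. The median Jun level was 2.65 ± 0.12 (SD, n = 2) over the 71 BCR regions and 2.58 ± 0.19 (SD, n = 2) over the 70 ABL1 regions. The 75th percentile of all Jun regions was 1.99. Rad21 gave 2.76 ± 0.096 (SD, n = 2) at BCR and 2.20 ± 0.17 (SD, n = 2) at ABL1, where the 75th percentile of its table was 1.43. CTCF gave 1.94 ± 0.014 and 2.17 ± 0.18 (SD, n = 2 each). For H3K27ac the medians were 0.842 ± 0.036 at BCR and 0.834 ± 0.090 at ABL1 (SD, n = 2 each), under the typical region at both genes. With 2 libraries a group, an exact permutation test of such a level cannot go below a p of 0.333, so levels are given as descriptions.

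Regions without a peak showed the same. Set against the table's regions without a deposited peak at 0 h, those of the loci stood at a Jun level of 3.23 at BCR and 3.36 at ABL1. CTCF gave 3.16 and 2.63, and Rad21 gave 2.30 and 2.74. H3K27ac, below the typical region over all its regions, stood above the typical region without a peak, at 1.39 and 1.42. Regions were also denser than over the same chromosomes as a whole, from first to last region, with the windows and stretches without regions included. This held for H3K27ac too, whose level was not raised, at 7.81 per 100 kb against 5.05 (BCR) and 7.66 against 2.64 (ABL1). Jun regions stood at 13.2 per 100 kb in the BCR window against 7.24 on chromosome 22, and at 12.2 per 100 kb in the ABL1 window against 3.67 on chromosome 9.

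The Jun level changed part of the way through each gene. It dropped below the typical region at BCR, while at ABL1 the lower side still lay above it. Places where the Jun level at 0 h changed most along each window were found from the values themselves, so they carry no test. At BCR the split fell between the Jun region ending at chr22:23290508, 110.0 kb after the gene start, and the next one starting at 23302589, at 122.1 kb. The median level was 3.15 over the 55 regions before it and 0.562 over the 16 regions after it, and the split took up 59.6% of the squared deviations of log2 levels. The last region before it stood at 2.60 and the first after it at 1.46. At ABL1 the split ran the other way. It fell between 130730559 and 130731803, 17.5 to 18.8 kb after the gene start, with a median of 1.82 over 23 regions before it, 2.95 over 47 regions after it and 29.1% of the squared deviations. There the level went from 1.17 in the last region before it to 2.94 in the first region after it.

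The stretches with the high Jun level were thus the 5′ part of BCR with what lies before it, and the 3′ part of ABL1 with what lies after it, the parts that the fusion joins. In the median of each library, Jun stood at 3.31 and 3.20 before the BCR step and at 0.444 and 0.769 after it. All 55 regions before the step lay above the table's median, and 5 of 16 did after it. At ABL1 the 2 libraries gave 3.16 and 2.79 after the step and 1.99 and 1.75 before it, with 47 of 47 and 16 of 23 regions above the median. The sides did not overlap between libraries at either gene. The splits were placed by the values of these same libraries, so this separation is partly built in and is no independent support.

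Rad21 and CTCF, split at the Jun positions, showed the same order. Rad21 stood at 2.92 ± 0.12 before the BCR step against 0.852 ± 0.13 after it, and at 2.80 ± 0.19 after the ABL1 step against 1.47 ± 0.26 before it (SD, n = 2 each). All 51 Rad21 regions before the BCR step lay above the table's median. CTCF gave 2.09 ± 0.10 against 1.21 ± 0.35 at BCR and 2.35 ± 0.028 against 1.52 ± 0.24 at ABL1 (SD, n = 2 each). H3K27ac followed this order at BCR, with 0.962 ± 0.021 before the step and 0.376 ± 0.017 after it, and the opposite order at ABL1, with 0.584 ± 0.057 after the step and 2.07 ± 0.17 before it (SD, n = 2 each).

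Searched for its own split, Rad21 changed most at ABL1 between 1.1 and 18.7 kb, a gap whose far edge lies next to the Jun step, and at BCR between 130.5 and 135.1 kb. The CTCF split fell between 135.5 and 135.7 kb at BCR and between 44.0 and 57.7 kb at ABL1. The H3K27ac split fell between 90.3 and 98.5 kb at BCR and at 157.6 kb at ABL1. The splits thus fell at different points, and few regions lay beyond the Jun step at BCR (16 for Jun, 8 for CTCF, 6 for Rad21). The Rad21 split at BCR left 5 regions after it, the fewest that the search allowed, so the bound may have set its place. The Rad21 splits took up 32.9% of the squared deviations at each gene. The CTCF splits took up 29.2% at BCR and 13.3% at ABL1, and the H3K27ac splits 24.5% and 51.4%.

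**Figure D1:**
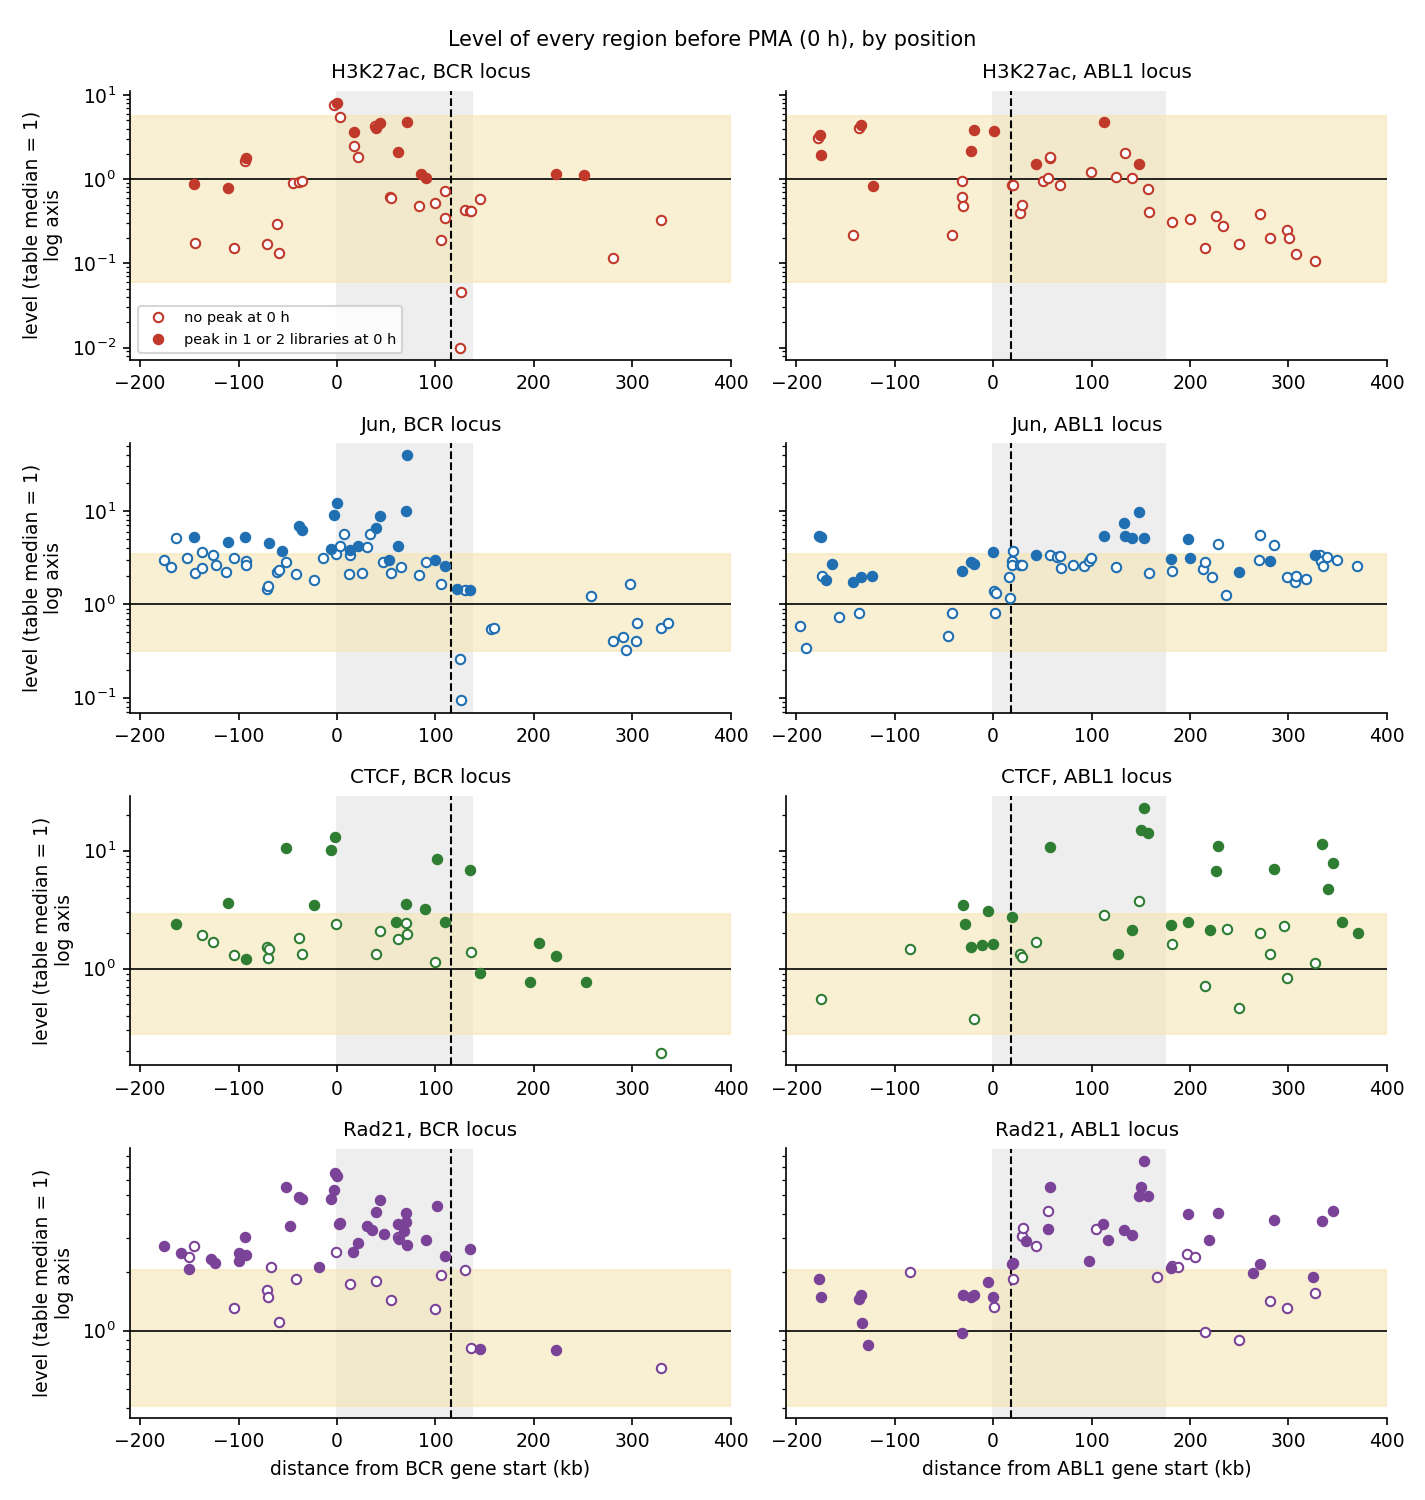
Level of each region at 0 h (count per kb over the table's median, log axis) against the distance of its midpoint from the gene start in kb, for each antibody and both genes. Open points had no deposited peak at 0 h and filled points had one in at least 1 library, the grey band is the gene, the yellow band spans the 10th to 90th percentile of the table, and the dashed line is the middle of the Jun step. Jun points lie above 1 in all 55 regions before the BCR step and in all 47 after the ABL1 step.

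Regions lie beside each step in all 4 tables. In the last stretch before the BCR step, near 109.7 kb, Jun gave 65 and 62 counts at 0 h (levels average 2.60), CTCF gave 126 and 74 (2.47) and Rad21 gave 121 and 84 (2.43), while H3K27ac gave 18 and 13 (0.722). Just after the ABL1 step, near 19.1 kb, Jun gave 49 and 66 counts (2.94), CTCF gave 126 and 88 (2.72), Rad21 gave 115 and 86 (2.21) and H3K27ac gave 41 and 58 (0.844). CTCF had a deposited peak at both places in all 6 of its libraries.

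Over the PMA course the Jun levels on both sides of each step came closer to the table's median. They fell on the high sides and on the low side of ABL1, and rose on the low side of BCR. The sides were drawn from the Jun values at 0 h, so these levels carry no test. Before the BCR step the median fell from 3.25 ± 0.078 at 0 h to 2.28 ± 0.29 at 72 h, and after the ABL1 step from 2.97 ± 0.26 to 1.97 ± 0.032 (SD, n = 2 each), with no overlap of the libraries of the 2 times. At 72 h 49 of 55 and 43 of 47 of these regions still lay above the table's median. The table narrowed as well, with a 75th percentile of 1.54 at 72 h against 1.99 at 0 h. At the low side of BCR the Jun level was 0.606 ± 0.23 at 0 h and 1.04 ± 0.045 at 72 h, and at the low side of ABL1 it was 1.87 ± 0.17 and 1.09 ± 0.070 (SD, n = 2 each). Rad21 on the high sides stood at 3.09 ± 0.032 (BCR) and 2.71 ± 0.0013 (ABL1) at 72 h, and CTCF at 2.96 ± 0.17 and 2.78 ± 0.062 (SD, n = 2 each).

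As shares of all counts of a table, both loci went up in Jun and H3K27ac, and BCR went up in CTCF. The 71 Jun regions at BCR, 0.0512% of the Jun regions, took 0.0778% ± 0.0061 of the counts at 0 h, 0.0955% ± 0.0007 at 6 h and 0.115% ± 0.0030 at 72 h (SD, n = 2 each). At ABL1 the shares were 0.0576% ± 0.0051, 0.0743% ± 0.0042 and 0.0929% ± 0.0013. H3K27ac went from 0.0272% ± 0.0007 to 0.0545% ± 0.0030 at BCR and from 0.0224% ± 0.0002 to 0.0391% ± 0.0007 at ABL1. CTCF at BCR held 0.0917% and 0.0795% of the counts in the libraries of 0 h, 0.0732% and 0.0920% after 6 h, and 0.1085% and 0.1087% after 72 h, with the 72 h libraries above all others. CTCF at ABL1 held 0.145% ± 0.0007 at 0 h and 0.147% ± 0.0030 at 72 h. Rad21 held 0.0682% and 0.0804% at 0 h and 0.0719% and 0.0737% after 72 h at BCR, where the times overlapped. At ABL1 it held 0.0686% and 0.0775% at 0 h and 0.0637% in both 72 h libraries. The Jun level, which is set against the table's median region and not its total, fell on the high sides and the low side of ABL1 over the same time.

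**Figure D2:**
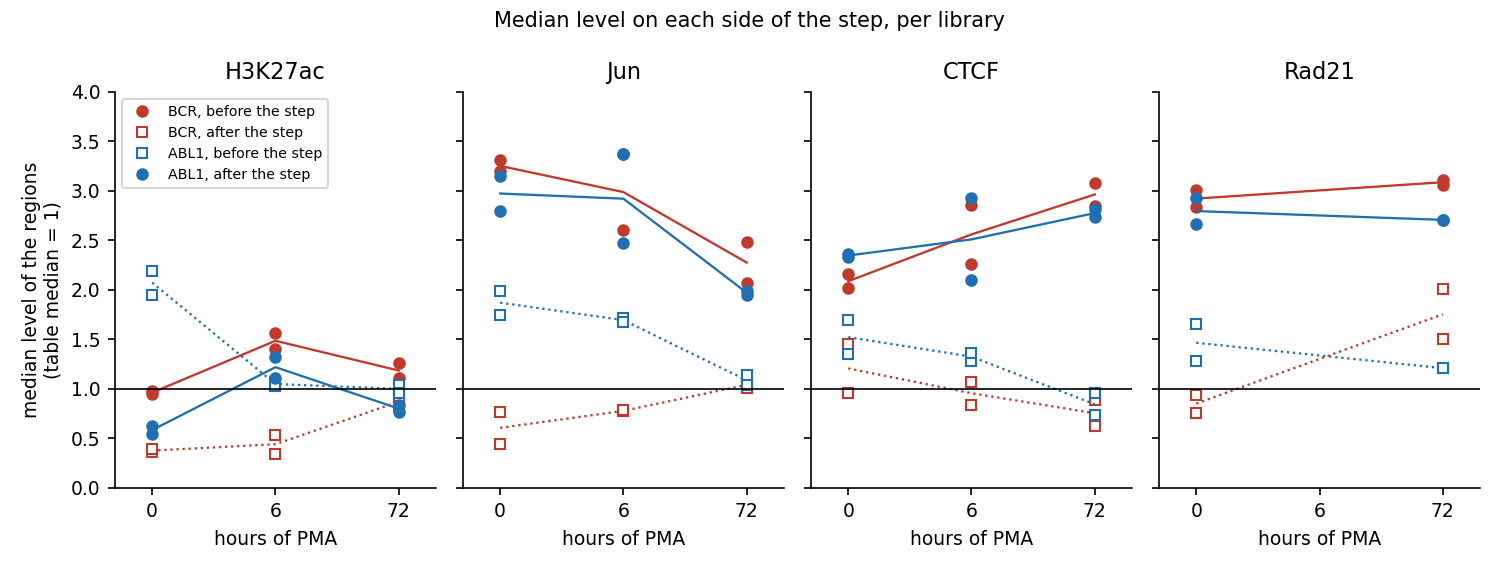
Median level of the regions on each side of the Jun step (count per kb over the table's median, axis from 0) in each library at 0, 6 and 72 h of PMA, by antibody. Points are libraries and lines join the means of a time point. The Jun level before the BCR step goes from a mean of 3.25 at 0 h to 2.28 at 72 h.

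Deposited peaks, called by the authors in each library alone, grew in number at both loci for Jun and H3K27ac, as the whole lists did. The Jun libraries had 35 and 41 peaks in both windows at 0 h, 30 and 38 after 6 h, and 101 and 101 after 72 h. The peak lists grew alike, and the windows held 0.111% and 0.117% of the Jun lists at 0 h and 0.109% and 0.102% at 72 h. H3K27ac had 28 and 28 peaks at 0 h, 37 and 30 after 6 h, and 54 and 49 after 72 h. The windows took 0.066% and 0.065% of these lists before PMA, 0.100% and 0.076% after 6 h, and 0.083% and 0.074% after 72 h, and the lists of replicate 1 held 42125 peaks at 0 h and 65267 at 72 h. CTCF had 39 and 32 at 0 h and 32 and 48 at 72 h, and Rad21 had 44 and 65 at 0 h and 44 and 43 at 72 h, each with overlapping counts. Their shares of the lists were 0.116% and 0.114% at 0 h and 0.118% in both libraries at 72 h for CTCF, and 0.127% and 0.110% against 0.133% and 0.167% for Rad21.

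H3K27ac was called at 61.6% of the regions of the loci at 6 h and at 60.5% from 6 to 72 h, near the table's shares. At 72 h it was called at 66.3%, below the table's share. Rises outnumbered falls at 6 h. Changes were tested with edgeR's quasi-likelihood test over each whole table, with Benjamini-Hochberg adjusted p under 0.05 as the call. At 6 h, 53 of 86 regions were called, 44 higher and 9 lower, where 58.6% of the table was called, 32.3% higher and 26.3% lower. The median log2 change was 0.60 at BCR and 0.92 at ABL1, against 0.20 over all regions. At 72 h, 57 were called, 33 higher and 24 lower, against 81.5% of the table, 43.4% higher and 38.1% lower. The medians at 72 h were 0.63 at BCR and -0.07 at ABL1, against 0.18 over all regions. Between 6 and 72 h, 52 were called, 21 higher and 31 lower, where 63.8% of the table was called, 33.1% higher and 30.8% lower. The 6 h and 72 h comparisons share their 0 h libraries.

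At the promoter that drives the fusion, H3K27ac was high and fell moderately. The region over the BCR promoter, chr22:23179224-23181232, had the highest H3K27ac level of the BCR window at 0 h, 8.11, above 95.4% of the table. Its libraries gave 72.7 and 78.1 CPM at 0 h, 69.6 and 59.9 after 6 h, and 48.6 and 49.1 after 72 h. The 72 h libraries lay below all others, and the log2 change was -0.63 ± 0.11 (SE; edgeR adjusted p = 7.04e-06). The region over the ABL1 gene start, chr9:130712619-130715373, gave 47.1 and 47.6 CPM at 0 h, 52.1 and 47.2 after 6 h, and 28.3 and 29.5 after 72 h. Its log2 change at 72 h was -0.71 ± 0.10 (SE; edgeR adjusted p = 1.02e-06). With scaling factors taken from regions that held a peak in every library, neither call remained (log2 changes of -0.02 and -0.11, edgeR adjusted p = 0.826 and 0.285).

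The largest H3K27ac rise and fall of each window follow. Inside BCR, chr22:23304495-23305721 at 124.6 kb had 1 and 1 counts at 0 h, 9 and 13 after 6 h, and 277 and 296 after 72 h. The ratio of 72 h to 0 h was 190.2, with a counting interval (95%) of 52.4 to 1575, since only 2 counts stood at 0 h. Inside ABL1, chr9:130824547-130826015 at 112.2 kb had the highest level of its window at 0 h, 4.80. It gave 34.0 and 31.3 CPM at 0 h, 19.9 and 16.9 after 6 h, and 3.15 and 2.88 after 72 h, a log2 change of -3.44 ± 0.15 (SE; edgeR adjusted p = 6.04e-17). Within FIBCD1, which encodes a fibrinogen-like membrane receptor for acetylated groups, chr9:130927464-130929072 at 215.2 kb gave 1.19 and 1.05 CPM at 0 h, 17 and 13.0 after 6 h, and 66.8 and 69.2 after 72 h. Its log2 change was 5.92 ± 0.18 (SE; edgeR adjusted p = 1.29e-19). Beyond BCR, chr22:23431141-23431708 at 250.9 kb gave 3.07 and 2.79 CPM at 0 h and 0.507 and 0.401 at 72 h, a log2 change of -2.67 ± 0.40 (SE; edgeR adjusted p = 1.49e-06). Its fall at 6 h (-1.02 ± 0.37 SE, edgeR adjusted p = 0.0208) was lost without either 0 h library, without the second 6 h library, with total counts, with the factors from peak regions and in DESeq2 (adjusted p of 0.0531 to 0.171).

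Jun was called at 39 of 140 tested regions at 6 h, 23 higher and 16 lower, where 25.3% of the table was called, 13.1% higher and 12.2% lower. At 72 h, 89 were called, 31 higher and 58 lower, against 53.7% of the table, 28% higher and 25.7% lower. The median log2 change at 72 h was -0.10 at BCR and -0.53 at ABL1, against 0.17 over all regions. Between 6 and 72 h, 59 were called, 13 higher and 46 lower, where 26.2% of the table was called, 12.7% higher and 13.5% lower. That last count was 25 without the first 72 h library and 19 without the second.

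Which Jun direction prevailed depended on the scaling. The median log2 change of all Jun regions at 72 h was 0.17 with TMM factors, 0.73 with total counts, 0.08 with DESeq2's size factors and 0.96 with factors from regions that held a peak in every library. Under these the regions of the loci split into 31 higher and 58 lower, 47 and 29, 28 and 61, and 60 and 23. From 6 to 72 h the split was 29 and 18 with total counts and 41 and 6 with the factors from peak regions, and at 6 h it was 27 and 11 and 28 and 11. H3K27ac at 72 h split into 44 higher and 13 lower with the factors from peak regions, where the median of all regions was 0.79, and into 26 and 23 from 6 to 72 h. In Jun, the median of the loci lay below that of the table under each of these scalings, at -0.32 with TMM, 0.24 with total counts, -0.41 with DESeq2's size factors and 0.47 with the factors from peak regions.

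On the high side of BCR, 12 Jun regions rose and 22 fell at 72 h, and 21 were not called. On the high side of ABL1, 11 rose, 23 fell and 13 were not called. Beyond the BCR step 5 rose, 2 fell and 9 were not called, and before the ABL1 step 3 rose, 11 fell and 8 were not called. The sides were drawn from the 0 h values of the same libraries, so these counts are descriptions. Jun falls followed the deposited peaks in part. The peaks were called in the same libraries as the tested counts. Falls at peaks of 0 h only and rises at peaks of 72 h only are therefore largely built in. All 14 Jun regions with a peak at 0 h only fell, where 5720 of 6023 such regions in the table did, and of 32 with a peak at both times 17 fell and 5 rose, where 60.7% and 8.69% did so. Of 22 Jun regions with no peak at 0 or 72 h, 16 fell and none rose, with a median log2 change of -1.24, where 26.4% of such regions in the whole table fell and their median was -0.25. Of 72 regions with a peak at 72 h only, 26 rose and 11 fell, where 44.5% and 3.68% did so in the table.

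The strongest Jun region of each window was picked by its 0 h level and tested in the same libraries, which favours a later fall. In the BCR window it lay inside the gene at 71.4 kb, chr22:23251495-23252233, at a level of 39.4, above 99.9% of the table. It gave 180.4 and 174.1 CPM at 0 h, 121.9 and 150.4 after 6 h, and 82.1 and 78.8 after 72 h. The 72 h libraries lay below all others, with a log2 change of -1.14 ± 0.20 (SE; edgeR adjusted p = 5.57e-05), which was -0.35 with an adjusted p of 0.0799 under the factors from peak regions. The strongest one of the ABL1 window lay at 148.1 kb, chr9:130860737-130861472, with 40.3 and 47.3 CPM at 0 h, 30.2 and 30.7 after 6 h, and 31.8 and 30.0 after 72 h. Its log2 change of -0.50 ± 0.18 (SE; edgeR adjusted p = 0.0220) turned to 0.06 with total counts and 0.29 with factors from peak regions. It was lost without the second 0 h library or either 72 h library (adjusted p of 0.133 to 0.211).

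Jun fell over the BCR promoter window. The Jun region over the promoter window, chr22:23180226-23180758, gave 35.6 and 44.3 CPM at 0 h, 26.6 and 25.7 after 6 h, and 14.4 and 11.8 after 72 h. The time points did not overlap, and the log2 change was -0.61 ± 0.20 at 6 h (SE; edgeR adjusted p = 0.0279) and -1.61 ± 0.19 at 72 h (SE; edgeR adjusted p = 7.89e-07). The 6 h call was lost without the second 0 h library (adjusted p = 0.246), without the first 72 h library (0.0771), with total counts (0.156) and with the factors from peak regions (0.0809). The Jun region most overlapped by the H3K27ac region of the promoter, chosen after its values were seen, had a log2 change of 0.85 at 72 h. Its spread and its dependence on the scaling are not given here.

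The largest Jun changes at 72 h were these. Inside BCR at 126.0 kb, chr22:23306315-23306688 had 0 and 3 counts at 0 h, 8 and 0 after 6 h, and 68 and 60 after 72 h, a ratio of 13.2 with a counting interval (95%) of 4.42 to 64.9. The call (edgeR adjusted p = 0.00134) was lost in DESeq2 (adjusted p = 0.229). Inside BCR at 12.9 kb, chr22:23193261-23193460 gave 3.21 and 6.02 CPM at 0 h, 2.04 and 1.64 after 6 h, and 0.951 and 0.849 after 72 h, a log2 change of -2.35 ± 0.43 (SE; edgeR adjusted p = 0.000112). Inside ABL1 at 133.3 kb, chr9:130846084-130846529 gave 22.2 and 18.2 CPM at 0 h, 6.58 and 7.85 after 6 h, and 3.76 and 3.14 after 72 h, a log2 change of -2.55 ± 0.22 (SE; edgeR adjusted p = 2.30e-08). The largest rise of the ABL1 window was that of the FIBCD1 region, from 22.2 and 17.6 CPM at 0 h to 76.9 and 84.1 at 6 h and 105.5 and 103.9 at 72 h, a log2 change of 2.40 ± 0.20 (SE; edgeR adjusted p = 1.71e-08).

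**Figure D3:**
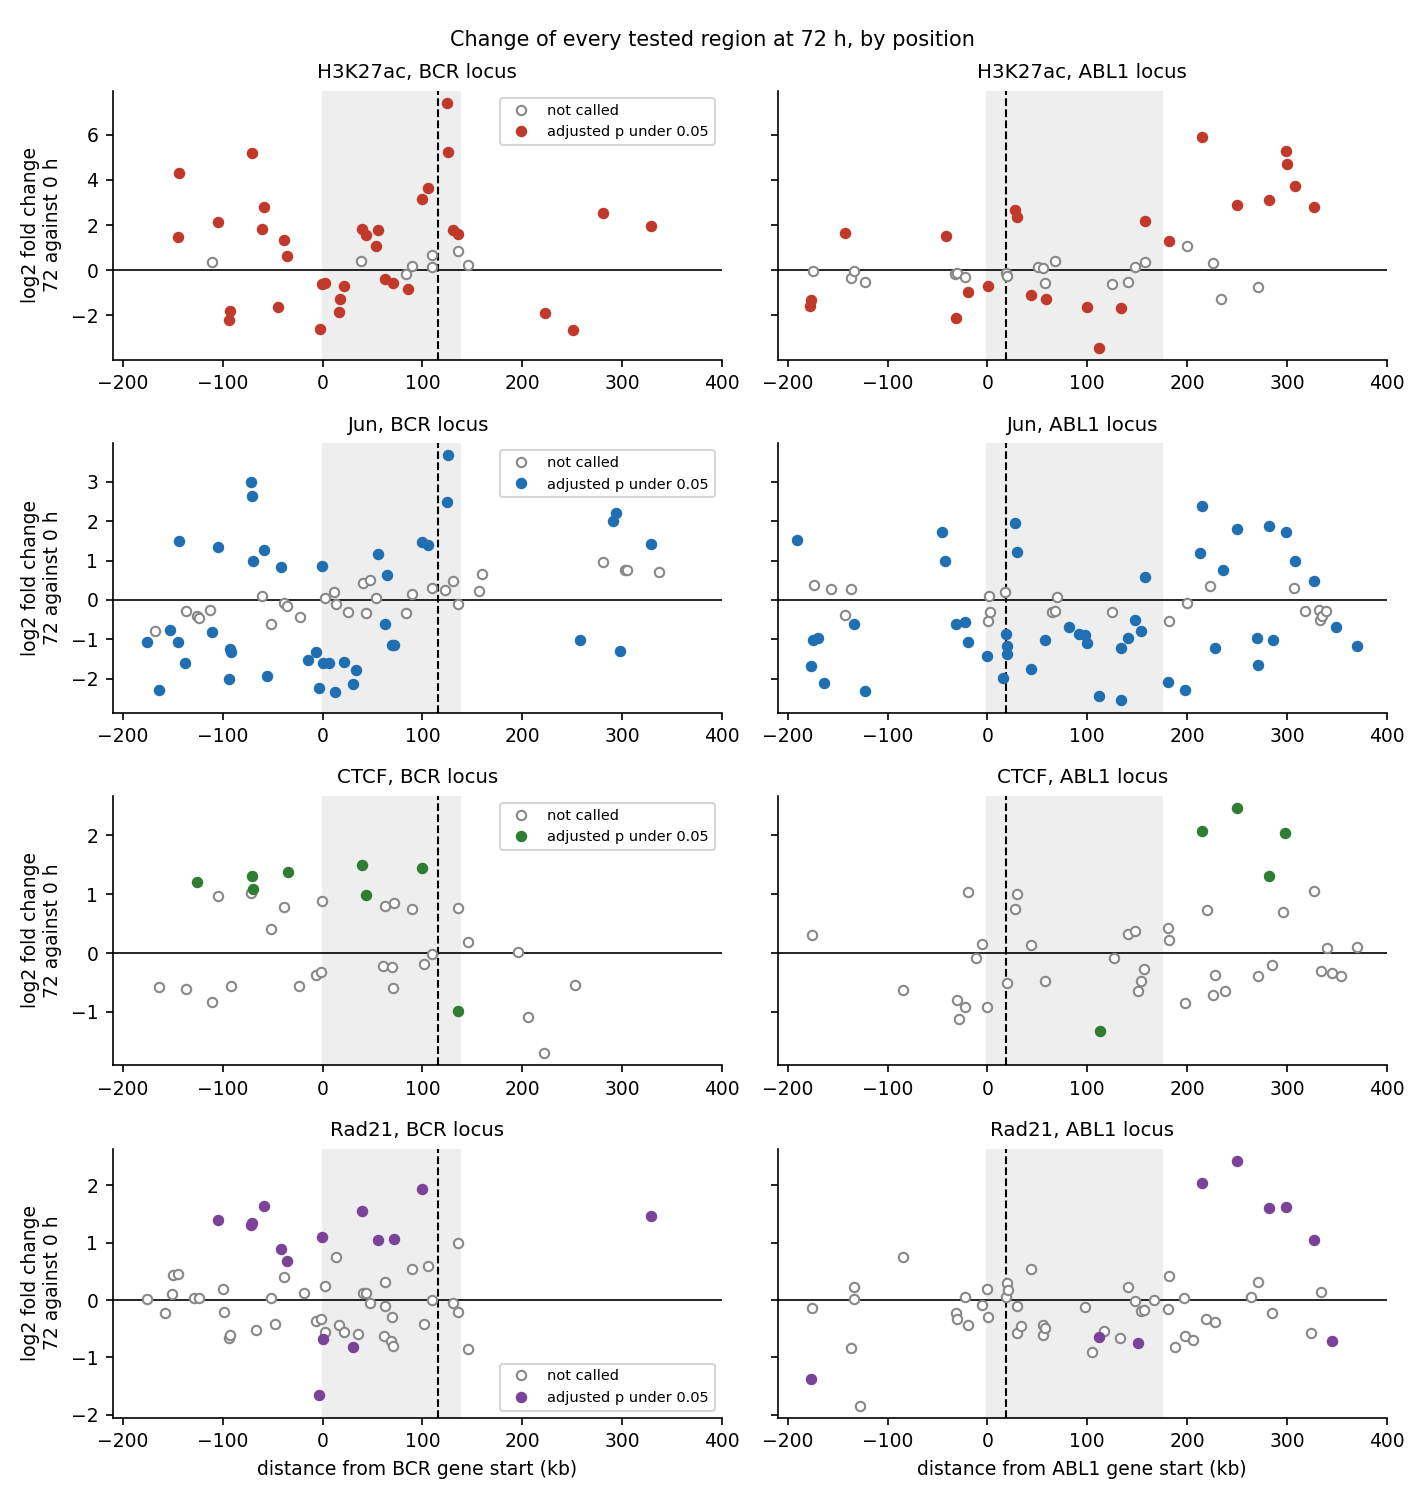
Log2 change from 0 to 72 h of each tested region (edgeR, TMM scaling) against the distance from the gene start in kb, for each antibody and both genes. Filled points passed an adjusted p of 0.05, the grey band is the gene and the dashed line the middle of the Jun step. Rises and falls are interspersed along both windows, and the deepest H3K27ac point is the ABL1 region at 112.2 kb, at -3.44.

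CTCF changed at few regions. At 6 h, 4 of 75 tested regions were called, all 4 higher, where 2.65% of the table was called, 2.33% higher and 0.325% lower. At 72 h, 13 were called, 11 higher and 2 lower, against 6.79% of the table, 4.07% higher and 2.72% lower. Between 6 and 72 h, 3 were called, 2 higher and 1 lower, where 2.18% of the table was called, 0.449% higher and 1.73% lower. These counts rest on single libraries. The 72 h count was 2 and 0 without the first and second 0 h library, 4 and 3 without the first and second 72 h library, and 26 and 27 without the first and second 6 h library. The 6 h count ranged from 0 to 6 and the count between 6 and 72 h from 1 to 7 with 1 library left out. With the factors from peak regions the 72 h split was 17 higher and 0 lower, and with total counts the split from 6 to 72 h was 9 and 1.

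The strongest CTCF regions kept high counts at every time. The 3 with the highest mean CPM in the BCR window lay before the gene start, at -52.0, -6.3 and -1.8 kb, inside RSPH14, which encodes a radial spoke protein of cilia. The last, chr22:23178409-23179065, had a level of 13.0 at 0 h, above 99.6% of the table, and gave 129.7 and 132.4 CPM at 0 h, 106.2 and 141.2 after 6 h, and 106.0 and 104.7 after 72 h. Its log2 change at 72 h was -0.32 ± 0.29 (SE; edgeR adjusted p = 0.478). The strongest in the ABL1 window lay in the gene at 153.6 kb, chr9:130866291-130866959, at a level of 22.9, with 231.7 and 238.9 CPM at 0 h, 214.0 and 249.0 after 6 h, and 167.0 and 169.8 after 72 h (log2 change -0.48 ± 0.31 SE, edgeR adjusted p = 0.317). The other two of that window lay at 157.2 kb in ABL1 and at 333.9 kb in LAMC3, a laminin chain, with log2 changes of -0.28 ± 0.29 and -0.30 ± 0.30 (SE). CTCF had a peak in all 6 libraries at 9 regions of the BCR window, 8 of them with a Rad21 region, and at 11 of the ABL1 window, all 11 with a Rad21 region. Of these 20 places, 1 was called at 72 h.

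The CTCF falls lay inside the genes. In BCR at 135.3 kb, chr22:23315525-23316052 gave 54.0 and 56.3 CPM at 0 h, 40.5 and 50.04 after 6 h, and 24.0 and 31.5 after 72 h, a log2 change of -0.98 ± 0.26 (SE; edgeR adjusted p = 0.0340). In ABL1 at 112.4 kb, chr9:130825272-130825541 gave 10.7 and 13.0 CPM at 0 h and 5.99 and 3.65 at 72 h (-1.32 ± 0.39 SE, edgeR adjusted p = 0.0472). The largest rise inside BCR, chr22:23219945-23220245 at 39.6 kb, went from 5.86 and 6.50 CPM to 18.9 and 16.0 (1.49 ± 0.36 SE, edgeR adjusted p = 0.0251). Each of these 3 calls was lost without any 1 of the 0 h or 72 h libraries (adjusted p of 0.0871 to 0.361) and in DESeq2 (0.0712 to 0.207). Both falls were also lost with total counts (0.151 and 0.0742) and with the factors from peak regions (0.0860 and 0.119), and the fall in BCR under a filter of 50 on the mean count (0.0993).

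Rad21 was called at 24 of 110 tested regions at 72 h, 17 higher and 7 lower, where 23.3% of the table was called, 15.4% higher and 7.91% lower. The count was 12 without the first 72 h library and 13 without the second, and with total counts the split was 12 higher and 15 lower. The median log2 change was 0.03 at BCR and -0.16 at ABL1, against -0.05 over all regions. The strongest Rad21 region of the BCR window lay at the -1.8 kb CTCF region, with 35.5 and 29.8 CPM at 0 h and 25.9 and 26.4 at 72 h (log2 change -0.32 ± 0.23 SE, edgeR adjusted p = 0.319). The strongest of the ABL1 window lay at the 153.6 kb CTCF region, with 55.3 and 53.8 CPM at 0 h and 47.9 and 47.5 at 72 h (-0.19 ± 0.22 SE, edgeR adjusted p = 0.544). At the BCR promoter window Rad21 gave 34.9 and 31.7 CPM at 0 h and 22.3 and 19.2 at 72 h (-0.68 ± 0.24 SE, edgeR adjusted p = 0.0413). That call was lost without the first 0 h library or either 72 h library (adjusted p of 0.301 to 0.515), in DESeq2 (0.170) and with no filter on low counts (0.0943). The largest fall at BCR, at -3.1 kb, went from 21.4 and 26.4 CPM to 8.93 and 6.03 (-1.65 ± 0.28 SE, edgeR adjusted p = 0.000204). The largest fall at ABL1, at -176.9 kb, went from 5.19 and 7.81 CPM to 2.98 and 1.89 (-1.37 ± 0.43 SE, edgeR adjusted p = 0.0244), and was lost without the second 0 h library or either 72 h library (adjusted p of 0.0646 to 0.277) and in DESeq2 (0.206).

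Where H3K27ac rose, Jun, Rad21 and CTCF each rose at more than they did not of the regions it overlapped. Where it fell, most Jun regions fell while most Rad21 and CTCF regions were not called. Of 33 H3K27ac regions that rose at 72 h, 32 overlapped a Jun region, of which 20 rose, 1 fell and 11 were not called. Rad21 regions lay at 21 of the 33, where 12 rose and none fell, and CTCF regions at 16, where 9 rose and none fell. Of 24 H3K27ac regions that fell, 17 overlapped a Jun region, of which 15 fell, 1 rose and 1 was not called. Rad21 lay at 15 of the 24, where 4 fell, 1 rose and 10 were not called, and CTCF at 9, where 1 fell and 8 were not called. At the 29 H3K27ac regions that were not called, 22 overlapped a Jun region, of which 12 fell and 1 rose, none of 18 Rad21 regions was called and 1 of 14 CTCF regions fell. These are overlaps of at least 1 base, described after the values were seen, and the agreement was not tested. The same overlaps were not counted over the whole tables, so the agreement is not shown to be particular to these loci.

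At 11 places every table with a tested region, H3K27ac, Jun and Rad21 at least, was called in the same direction at 72 h. CTCF was among the tables at 7 of them, 6 higher and 1 lower. Over the whole tables, 81.5% of H3K27ac, 53.7% of Jun, 23.3% of Rad21 and 6.79% of CTCF regions were called at 72 h. How often such shared sites occur elsewhere was not counted, so their number is not shown to be particular to these loci. These sites were picked by their 72 h calls, so what follows describes them. Inside BCR at 99.3 kb, chr22:23279022-23280557 went from 3.73 ± 0.35 CPM of H3K27ac at 0 h to 40.1 ± 0.94 at 6 h and 33.7 ± 2.4 at 72 h. Jun there went from 19.2 ± 2.2 to 51.9 ± 0.40 and 53.6 ± 4.1, CTCF from 11.6 ± 0.13 to 25.6 ± 2.8 and 31.7 ± 1.1, and Rad21 from 8.89 ± 0.33 to 34.2 ± 0.32 (SD, n = 2 each). The site lies before the BCR step, and most of its gain was in place at 6 h.

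Before BCR, in GNAZ, which encodes a G protein alpha subunit, chr22:23108621-23111036 at -70.7 kb went from 1.93 ± 0.48 CPM of H3K27ac at 0 h to 11.2 ± 2.2 at 6 h and 70.4 ± 2.2 at 72 h. Jun went from 6.14 ± 0.44 to 11.0 ± 5.0 and 38.3 ± 0.037, CTCF from 5.69 ± 0.12 to 5.39 ± 2.4 and 14.1 ± 2.0, and Rad21 from 6.47 ± 0.70 to 16.0 ± 1.9 (SD, n = 2 each). Here the 72 h values of H3K27ac, Jun and CTCF stood above those at 6 h in both libraries.

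After ABL1, 4 sites rose in all 4 tables. The FIBCD1 site at 215.2 kb, beside its H3K27ac and Jun gains given above, went from 9.40 ± 2.6 to 22.2 ± 8.9 and 40.3 ± 3.2 CPM in CTCF and from 10.3 ± 1.7 to 42.6 ± 1.9 in Rad21 (SD, n = 2 each). The site at 249.7 kb, in no gene, had the largest CTCF and Rad21 rises of the ABL1 window on the log2 scale, from 2.99 ± 1.2 to 17.2 ± 1.5 and from 3.84 ± 0.35 to 20.9 ± 0.76 CPM between 0 and 72 h (SD, n = 2 each). In LAMC3 at 298.9 kb, H3K27ac went from 2.30 ± 0.044 to 6.46 ± 0.57 and 90.3 ± 7.0 CPM and Jun from 19.8 ± 1.3 to 28.2 ± 7.0 and 65.5 ± 2.3 (SD, n = 2 each). At 281.8 kb the means of 0 and 72 h were 1.01 and 8.69 CPM in H3K27ac, 15.4 and 56.7 in Jun, 8.48 and 21.1 in CTCF, and 9.64 and 28.6 in Rad21.

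The site that fell in all 4 tables was the 112.2 kb region in ABL1, the strongest H3K27ac region of that window at 0 h. Jun there went from 25.0 ± 0.72 to 16.8 ± 11 and 4.60 ± 0.56 CPM and Rad21 from 42.7 ± 2.6 to 27.4 ± 2.9 (SD, n = 2 each). A second falling site, at -2.9 kb just before BCR, had no tested CTCF region. H3K27ac there went from 7.31 ± 0.58 to 1.22 ± 0.26 and 1.20 ± 0.35 CPM and Jun from 29.2 ± 3.5 to 5.83 ± 0.53 and 6.12 ± 0.59 (SD, n = 2 each), so that the 6 h values were already those of 72 h within their spread. The other three, at -58.8, 55.3 and 329.4 kb of the BCR start, rose from 0.329, 1.66 and 1.53 CPM of H3K27ac at 0 h to 2.30, 5.62 and 5.99 at 72 h.

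The H3K27ac and Jun calls of these 11 sites at 72 h held in each alternative that tested them. The CTCF call was lost without any 1 of the 0 h or 72 h libraries at -70.7, 112.2 and 281.8 kb, without either 0 h library at 99.3 and 249.7 kb, without the second 0 h library at 215.2 kb, and without the second 0 h or second 72 h library at 298.9 kb (adjusted p up to 0.361). It was also lost in DESeq2 at -70.7, 112.2 and 281.8 kb (0.133 to 0.207), with total counts and with the factors from peak regions at 112.2 kb (0.0742 and 0.119), and at 281.8 kb under the filter of 50 on the mean count (0.0718). The Rad21 call was lost without any 1 library at 112.2 kb, without the first 0 h or either 72 h library at 55.3 kb, and without the second 0 h or either 72 h library at 329.4 kb (adjusted p up to 0.546). It was also lost in DESeq2 at these 3 sites (0.135 to 0.178), with no filter on low counts at 112.2 kb (0.105), and with total counts at 55.3 and 329.4 kb (0.0917 and 0.0629).

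**Figure D4:**
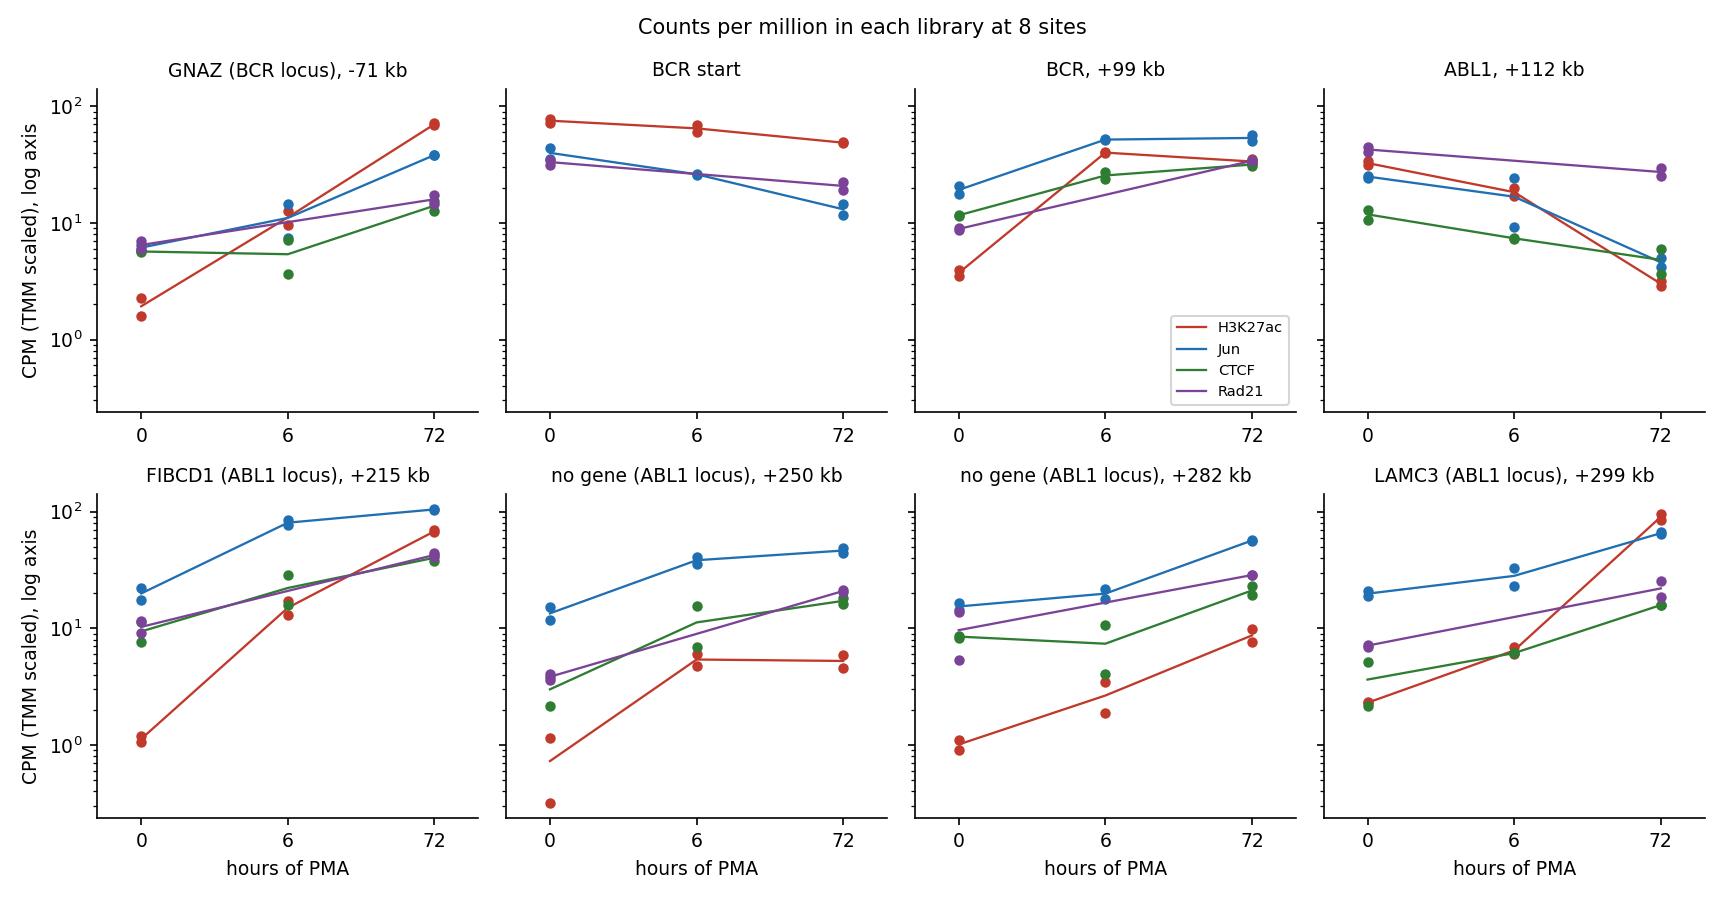
CPM (TMM scaled, log axis) in each library at 0, 6 and 72 h of PMA for the 7 sites called in the same direction in all 4 tables and for the BCR start. Points are libraries and lines join the means of a time point, and Rad21 has no 6 h library. The 6 rising sites gain in all 4 antibodies, and the site in ABL1 at 112 kb falls in all 4.

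Genes that act with the fusion kinase had more H3K27ac falls than rises at their strongest regions, as did the table's regions with a peak at both 0 and 72 h. Of 31 genes for adaptors, effectors and targets of BCR-ABL1 signalling, 30 had a region within 2 kb of the gene, and the strongest was taken for each. At 6 h, 4 rose and 22 fell, with a median log2 change of -0.42, where 32.3% of all regions rose and 26.3% fell. At 72 h 3 rose and 24 fell, with a median of -0.77, against 43.4% of all regions higher and 38.1% lower and a median of 0.18. Of the table's regions with a peak at both 0 and 72 h, 18.0% rose and 64.0% fell at 72 h, with a median of -0.62. From 6 to 72 h, 4 rose and 13 fell, where 33.1% and 30.8% of all regions did so. With total counts 5 rose, 9 fell and 16 were not called at 6 h, and 5 rose and 20 fell at 72 h. ABL2, the paralogous kinase, rose from 10.6 ± 0.64 CPM at 0 h to 43.7 ± 0.78 at 6 h and 86.8 ± 13 at 72 h (SD, n = 2 each; log2 change 3.03 at 72 h). RIN1, an activator of ABL kinases, rose from 3.05 ± 0.38 to 15.1 ± 1.0 CPM (2.30), and CBL, a ubiquitin ligase recruited by the kinase, by a log2 change of 0.46. PIK3CD, a PI3K catalytic subunit, fell from 52.2 ± 1.5 to 11.4 ± 0.36 CPM (-2.19), and INPP5D, a lipid phosphatase, from 49.9 ± 3.3 to 14.9 ± 1.9 CPM (-1.74). STAT5A, a transcription factor activated by the fusion kinase, and its target SOCS2 fell by log2 changes of -1.03 and -1.32. In each gene the strongest region was taken over all time points, and its position within the gene was not part of the choice.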

How the data were processed

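CUT&RUN was measured in 22 K562 libraries. Per the submitters' processing notes, the tools were Trim Galore 0.4.3, BWA 0.7.17, SAMtools 1.9, deepTools 3.0.1, MACS2 and bedtools 2.26, and the notes name hg19 and hg38 with no role. Per the file headers, the deposited count tables hold raw read counts per region and library. The deposited peak lists give a fold ratio over the caller's background and a −log10 q per peak, by the authors and for each library alone. The authors' deposited log2 fold changes and adjusted p-values were not used.

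Gene spans came from RefSeq (GRCh38.p14). Of 22199 promoters, 52.3% overlapped an H3K27ac region, against 6.42% when moved by 300 kb, so the tables were read as GRCh38. Each whole table was fitted in edgeR 4.0.16 (R 4.3.3; filterByExpr, TMM, quasi-likelihood test, time point as the only term, Benjamini-Hochberg over all regions tested), with all time points of an antibody sharing the spread. Printed p-values are adjusted ones from these fits. The filter kept 86 H3K27ac, 140 Jun, 75 CTCF and 110 Rad21 regions of the loci. DESeq2 1.42.0, other scalings, filters, a replicate block, the gene spans alone and leaving out each library were the alternatives. On simulated counts with 200 regions changed 4-fold at 72 h, the fit recovered 174 in H3K27ac, 170 in Jun, 170 in CTCF and 144 in Rad21, with 2.79%, 5.03%, 4.49% and 2.04% of the calls false. The simulation gave all regions the same spread and changed only a few with a mean count of at least 20. Rises and falls were balanced in it, unlike in the real tables, where far more regions changed. These rates thus do not measure the error of the calls reported here. Levels are counts per kb over the table's median within a library. Counting intervals are 95% Clopper-Pearson intervals and, since the counts are not of unique molecules, cover counting error only.

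Named regions were those over the promoter windows, the highest per kb at 0 h, the largest rise and fall at 72 h among called regions with a mean count of at least 20, and the 3 strongest CTCF regions of each locus. Regions picked by their 0 h level or by their change at 72 h were tested in the same libraries, so their changes lean towards the picked direction. Regions at the gene starts, beside the steps and at the 11 shared sites were added after their values were seen. The regions and the lists were chosen with earlier results of these data known.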

Additional observations from a re-analysis of the deposited data

How the results depend on the processing

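The number of regions called in the 2 loci kept within 1.5 times its value in most alternatives, and the exceptions follow. A mean count of at least 50 left 35 H3K27ac calls at 6 h and 32 from 6 to 72 h, and 1, 5 and 0 CTCF calls at 6 h, 72 h and from 6 to 72 h. DESeq2 gave 25 Jun calls at 6 h and 38 from 6 to 72 h, 1, 5 and 1 CTCF calls in the same order, and 14 Rad21 calls. The gene spans alone, with fewer regions by construction, held 24, 27 and 31 H3K27ac calls (6 h, 72 h, 6 to 72 h), 13, 34 and 26 Jun calls, 2, 5 and 1 CTCF calls, and 8 Rad21 calls. Factors from peak regions gave 2 CTCF calls at 6 h, and total counts gave 10 from 6 to 72 h. Total counts also gave 14 calls among the signalling genes at 6 h. With 1 library left out, the counts ranged over 43 to 52, 50 to 58 and 43 to 54 for H3K27ac, 27 to 35, 62 to 96 and 19 to 59 for Jun, 0 to 6, 0 to 27 and 1 to 7 for CTCF, and 12 to 20 for Rad21. Apart from the library-wise and scaling effects, the cause of these differences was not tested.

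The main fits did not pair samples by replicate number. Deviations of same-numbered libraries correlated weakly, at -0.008 to 0.124, and at 0.079 to 0.124 for CTCF. Such values cannot exclude a pairing. With a replicate block, 12.3% of all CTCF regions were called at 72 h, against 6.79% without it. A replicate block gave 20 CTCF calls at 72 h and 7 from 6 to 72 h, and 55, 57 and 51 H3K27ac, 38, 88 and 55 Jun, 5 CTCF (6 h) and 28 Rad21 calls.

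Levels at 0 h (BCR, then ABL1) moved by more than the replicate spread with other references. Against the same chromosome they were 2.15 and 2.86 for Jun, 1.54 for CTCF at BCR and 2.14 for Rad21 at BCR. As counts per region they were 0.800 and 0.730 for H3K27ac, 2.79 and 3.13 for Jun, 2.20 for CTCF at BCR, and 3.21 and 2.67 for Rad21. Within the gene spans they were 0.888 and 1.03 for H3K27ac, 3.04 and 2.93 for Jun, 2.27 and 2.65 for CTCF, and 3.02 and 3.16 for Rad21. Among regions without a peak they were 1.39 and 1.42 for H3K27ac, 3.23 and 3.36 for Jun, 3.16 and 2.63 for CTCF, and 2.30 and 2.74 for Rad21. With single libraries they ranged over 0.817 to 0.868 and 0.770 to 0.897 for H3K27ac, 2.56 to 2.74 and 2.44 to 2.71 for Jun, 1.92 to 1.95 and 2.05 to 2.30 for CTCF, and 2.69 to 2.83 and 2.08 to 2.32 for Rad21. Counting only peaks whose −log10 q reached 10 left 16 for H3K27ac, 17 for Jun and 22.5 for Rad21 as means at 0 h, and 32 Rad21 peaks shared by both libraries.

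These regions changed sign, none with an adjusted p under 0.05. H3K27ac at 6 h over the BCR promoter was 0.11 with total counts and 0.13 with factors from peak regions, and at the ABL1 start -0.0002 with DESeq2 and -0.0032 without the first 6 h library. Jun at 6 h at 126.0 kb of BCR was -4.54 without the first 6 h library, within -4.54 to 6.35 over the single libraries left out. Jun at 72 h at 148.1 kb of ABL1 was 0.061 with total counts and 0.29 with factors from peak regions. Those factors gave CTCF changes at 72 h of 0.028 at -1.8 kb of BCR and 0.040 and 0.069 at 333.9 and 157.2 kb of ABL1, the last also 0.0021 with a mean count of at least 50. With 1 library left out, Rad21 ranged over -0.42 to 0.020 at -1.8 kb of BCR and -0.19 to 0.034 at 153.4 kb of ABL1, each above 0 without the first 0 h library. At the ABL1 start Rad21 was -0.0035 with total counts and ranged over -0.28 to 0.62 with 1 library left out, below 0 without the first 72 h library. Low counts at 0 h limit the folds at 124.6 and 126.0 kb of BCR.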

Other observations

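The high Jun and Rad21 levels ran on beyond the windows on the sides that the fusion joins. In bins of 100 kb from 1500 kb before the BCR start to the start itself, the mean Jun level at 0 h lay above 1 in all 15 bins and above 2 in 12 of them, with values of 1.44 to 5.19 over 258 regions. Rad21 lay above 2 in 14 of those 15 bins, at 1.95 to 3.23. From 200 to 1500 kb after the BCR start, none of 13 Jun bins lay above 2, and they ranged from 0.483 to 1.51 over 95 regions.

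After ABL1 the stretch had an end. From 100 to 600 kb after its start all 5 Jun bins lay above 2, at 2.74 to 5.46, and Rad21 stood at 2.19 to 3.46. From 700 to 1500 kb after the start, Jun ranged from 0.519 to 2.01, with 1 of 8 bins above 2, and that bin, 800 to 900 kb after the start, held 1 region. The Jun bin between these stretches, from 600 to 700 kb, stood at 1.41. From 1500 to 200 kb before the ABL1 start, 1 of 13 Jun bins lay above 2, at 3.48, between -900 and -800 kb. Nearer the gene, on the side that the fusion does not join, Jun stood at 1.93 from -200 to -100 kb. It stood at 2.46 from -100 to 0 kb, near the 2.66 of the bin from 0 to 100 kb. H3K27ac lay above 1 in 3 of its 15 bins before BCR and in 6 of 13 from 200 to 1500 kb after the BCR start. At ABL1 it lay above 1 in 3 of 5 bins from 100 to 600 kb after the start, in 0 of 8 from 700 to 1500 kb (highest 0.801) and in 5 of 13 before the gene. These bins were looked at after the values in the windows were seen, each median is over 1 to 29 Jun regions, and nothing was tested.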
